A study of Drosophila melanogaster with 18 samples.

Results

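ChIPCRM5432 is one of the 12 Drosophila melanogaster enhancers that were tested by QeFS, an assay in which a pool of enhancer-reporter constructs is read out in sorted embryonic cells through short tags in the reporter transcript. Its series consisted of every tag whose construct name in the count tables starts with ChIPCRM5432-, which gave 28 of 312 tags. These tags mark 8 constructs, the wildtype enhancer and all 7 combinations of mutated binding sites for 3 factors. The construct names end in WT or in the mutated motifs, with D for Deaf1, 7 for ZIPIC (CG7928) and 1 for CG12236-PB.

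The sorted populations were twi:CD2+ cells, with 3 collections, and mef2:CD2- cells, with 6 collections from 2 weeks (3 in each). All embryos were at stages 11 to 12, and their fathers carried a single reporter that ΦC31 integrase had placed at the attP40 landing site on chromosome 2L. twi:CD2+ cells came from a cross to a line in which the twist promoter drives the rat surface protein CD2, so that the positive cells stand for the whole mesoderm. mef2:CD2- cells came from a cross in which a Mef2 enhancer drives CD2 in fusion-competent myoblasts, and they are the cells that lacked CD2, that is, the embryo without most of those myoblasts. Mesodermal cells of other kinds remain in that population, and the cross and the collection days differ together with it, so that these cannot be told apart from the cell population itself. The tables hold tags only, so the identity of the sorted cells could not be checked on marker genes. Each collection had 1 RNA library and 1 DNA library from the same cells.

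Transcription factors find their targets through short DNA motifs, and an enhancer usually holds motifs for several factors, which can act separately or depend on one another. Deaf1 is a DNA-binding protein first described as a cofactor of the homeotic factor Deformed, with both activating and repressing roles on record. ZIPIC is a zinc finger protein that binds the insulator protein CP190. CG12236-PB, a protein isoform of the gene CG12236, is known mainly through its DNA motif. All 3 are broadly expressed in the embryo.

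The construct sequences were held here only in part, as the first 385 bases after the BmtI cloning site, and the enhancer goes on beyond them. Wildtype and mutant enhancers were compared over this stretch, with positions counted from 1 at its first base, so that the substitutions given are those of its beginning and need not be the whole of a mutation. Within it ChIPCRM5432-D differed from the wildtype by 4 substitutions, A192C, C325G, T335G and C355G, in which the wildtype base stands first. The authors count more mutated Deaf1 sites in this enhancer than these substitutions. ChIPCRM5432-1 differed by a single substitution, T178A. ChIPCRM5432-D1, the Deaf1/CG12236-PB double mutant, carried all 5 of them. ChIPCRM5432-7 showed 0 differences from the wildtype in this stretch, and ChIPCRM5432-D7, ChIPCRM5432-71 and ChIPCRM5432-D71 showed only those of their Deaf1 and CG12236-PB mutations. The rest of the enhancer, in which the ZIPIC mutation would have to be sought, was not analysed here.

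Each construct was read through several tags, which differ in sequence but not in the enhancer they report on. The tags of the constructs on which the results turn are given here as they are listed in the tables, 5′ to 3′: the nearly silent Deaf1/CG12236-PB double mutant, the triple mutant that differs from it by the ZIPIC sites, the CG12236-PB single mutant with the highest RNA counts, and the wildtype enhancer, whose tag c had little DNA.
ChIPCRM5432-D1 tag a: cagaccgattgatgtaataa
ChIPCRM5432-D1 tag b: gacatacaacagtagtcaat
ChIPCRM5432-D1 tag c: ttcgtgcatacaaatcacga
ChIPCRM5432-D71 tag b: gtgcagcattggccacgcca
ChIPCRM5432-D71 tag c: gttctagtctctgtcgagcg
ChIPCRM5432-D71 tag d: tactaccggcacaaacttac
ChIPCRM5432-1 tag a: actattttaaaaaaatttct
ChIPCRM5432-1 tag b: taaagtgagtaaccaacaga
ChIPCRM5432-WT tag a: acacacgactaggcatagcg
ChIPCRM5432-WT tag b: agtgcacgacatactcttat
ChIPCRM5432-WT tag c: ttaaaagagagaaaagaatg

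Activity was the share of a tag among all RNA UMIs of a collection divided by its share among the DNA UMIs of that collection, so that a value of 1 means that a tag was as frequent in RNA as in DNA. A UMI is a random 8-base label that marks a single molecule before amplification. A tag entered a collection with at least 65 DNA UMIs, and each tag in each collection was 1 observation. In twi:CD2+ cells 63 of 79 values were kept, from 22 tags, and in mef2:CD2- cells 124 of 154, from 23 tags. In each population 5 of the listed tags never reached the minimum. RNA libraries held 813922 to 1366066 UMIs in twi:CD2+ and 560294 to 1201998 in mef2:CD2- cells, and DNA libraries held 317396 to 621449 in twi:CD2+ and 54038 to 248151 in mef2:CD2- cells. The ChIPCRM5432 tags took up 30.7 to 37.0% of the RNA UMIs in twi:CD2+ cells and 32.6 to 39.1% in mef2:CD2- cells, but only 10.5 to 12.5% and 10.6 to 17.8% of the DNA UMIs. Of the 8 ChIPCRM5432 constructs, 7 were among the 8 most active constructs in both populations, of 86 measured in twi:CD2+ and 91 in mef2:CD2- cells.

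The eighth construct was the exception. ChIPCRM5432-D1, in which the Deaf1 sites and the CG12236-PB site were mutated and the ZIPIC sites were intact, was nearly silent. This combination was measured in a single construct, so that the mutations were not tested apart from any other feature of that construct. ChIPCRM5432-D1 had an activity of 0.0128, 0.0160 and 0.0255 in twi:CD2+ collections 1 to 3, while the wildtype enhancer had 12.3, 6.32 and 2.89. The mean over observations was 0.0181 ± 0.0159 (SD, n = 9 observations of 3 tags) for the double mutant and 7.90 ± 8.11 (SD, n = 7 of 3 tags) for the wildtype enhancer, a ratio of 0.00229 (adjusted p = 0.00230, exact permutation test of mean ranks). This ratio was 0.00450 without collection 1, 0.00145 without collection 3 and 0.00370 without tag c of the wildtype enhancer, whose value of 26.0 in collection 1 stood on 72 DNA UMIs, and it remained called each time. Collection means of the double mutant in mef2:CD2- cells ran from 0.0119 to 0.0335, with a median of 0.0198, against 3.35 to 7.95 with a median of 6.24 for the wildtype enhancer. There the means over observations were 0.0203 ± 0.00861 (SD, n = 18 of 3 tags) for the double mutant and 6.11 ± 3.30 (SD, n = 14 of 3 tags) for the wildtype enhancer. The ratio was 0.00333 (adjusted p = 5.71e-08, exact permutation test). These tests count repeated values of a tag as separate observations. With tag means as observations this pair was not called (adjusted p = 0.456, exact permutation test), a limit taken up below. No observation of the double mutant overlapped with the wildtype enhancer in either population.

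All 3 measured tags of ChIPCRM5432-D1 showed this, on deep DNA counts. In twi:CD2+ cells tag a had 53, 95 and 16 RNA UMIs in collections 1 to 3 on 3112, 3178 and 1854 DNA UMIs. Tag b had 85, 149 and 174 RNA UMIs on 3881, 2584 and 1777 DNA UMIs, and tag c had 123, 106 and 84 on 2691, 1074 and 3284. By comparison, the tags of the triple mutant ChIPCRM5432-D71 gave 9726 to 20085 RNA UMIs on 477 to 3929 DNA UMIs. The RNA UMIs of the double mutant's tags in mef2:CD2- cells ranged from 19 to 328 on 245 to 2120 DNA UMIs. The lowest tag mean in twi:CD2+ cells was 0.00681 ± 0.00157 (SD, n = 3 collections) for tag a, and the highest was 0.0272 ± 0.0257 (SD, n = 3) for tag b, which included 0.0567 in collection 3. The tag means in mef2:CD2- cells lay between 0.0177 ± 0.0106 and 0.0250 ± 0.00705 (SD, n = 6 collections each). A listed tag d had at most 6 DNA UMIs and gave no activity. Among all constructs measured, ChIPCRM5432-D1 had the lowest mean activity of 86 in twi:CD2+ and the second lowest of 91 in mef2:CD2- cells. Constructs of other enhancers lay close to it, with 0.0249 for ChIPCRM5857-D1 and 0.0351 for ChIPCRM2000-D1 in twi:CD2+ cells. In mef2:CD2- cells the unmutated ChIPCRM5857-WT had 0.0253. Whether such values are the background of the assay, which would bound the fold differences from ChIPCRM5432-D1, was not tested.

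The double mutant lay far below each of its single mutants. In twi:CD2+ cells ChIPCRM5432-D had an activity of 3.41, 4.30 and 1.98 in collections 1 to 3, and ChIPCRM5432-1 had 2.88, 2.94 and 3.20. Losing the CG12236-PB site in addition to the Deaf1 sites thus left 0.00560 of the activity of ChIPCRM5432-D (adjusted p = 0.00141), and losing the Deaf1 sites in addition to the CG12236-PB site left 0.00602 of that of ChIPCRM5432-1 (adjusted p = 0.00316, exact permutation tests). The collection means of ChIPCRM5432-D in mef2:CD2- cells ran from 2.28 to 4.67 (median 3.73) and those of ChIPCRM5432-1 from 1.53 to 3.18 (median 2.74). The double mutant had 0.00569 of the activity of ChIPCRM5432-D (adjusted p = 1.48e-08) and 0.00781 of that of ChIPCRM5432-1 (adjusted p = 1.94e-07, exact permutation tests). Within week 1 these ratios were 0.00480 and 0.00577, and within week 2 they were 0.00632 and 0.0102. Each was below 1 in 3 of 3 twi:CD2+ and 6 of 6 mef2:CD2- collections.

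With the ZIPIC sites mutated as well, the activity was again in the range of the single mutants. The triple mutant ChIPCRM5432-D71 had 3.02, 3.44 and 4.55 in twi:CD2+ collections 1 to 3, against 0.0128, 0.0160 and 0.0255 for ChIPCRM5432-D1. Its mean of 3.67 ± 2.28 (SD, n = 9) was 203-fold that of the double mutant (adjusted p = 0.00141, exact permutation test), and the ratio ran from 179 to 236 over the 3 collections. Without tag c of the triple mutant it was 135-fold and remained called (adjusted p = 0.00316, exact permutation test). The triple mutant's collection means in mef2:CD2- cells were 1.94 to 4.48 (median 3.18), and its mean over observations was 3.34 ± 1.86 (SD, n = 16). This was 164-fold that of the double mutant (adjusted p = 1.74e-08, exact permutation test), with 206-fold in week 1 and 138-fold in week 2. The observations of the 2 constructs did not overlap in either population. In the first 385 bases both carried the same 5 substitutions, and the bases that set them apart were not among those analysed here.

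The pairs of constructs with the double mutant stood apart from those without it. Of the 28 pairs among the 8 constructs, 7 include ChIPCRM5432-D1, and all 7 were called at an adjusted p under 0.1 in both populations, without overlapping observations. Of the other 21 pairs, 1 was called in twi:CD2+ and 11 in mef2:CD2- cells, and the observations overlapped in all 21 in both. Over all pairs of all 12 enhancers, 20.7% were called in twi:CD2+ and 39.4% in mef2:CD2- cells. The share of pairs without overlapping observations over all enhancers is not given here, so the lack of overlap has no such background. Among the effects of a single motif on a given background, 4 of 12 were called in twi:CD2+ cells (3 lower and 1 higher in the mutant), where 21.6% were called over all enhancers (15.7% lower and 5.88% higher). The count was 8 of 12 in mef2:CD2- cells (6 lower and 2 higher), where 37.9% were called over all enhancers (25.9% lower and 12.1% higher). Leaving aside the 3 effects that involve the double mutant, 1 of 9 and 5 of 9 were called.

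The p-values treat tags and collections alike as observations, although repeated values of a tag share that tag. With each tag reduced to its mean, a construct has 2 to 4 values and no pair passed (adjusted p of at least 0.416 in twi:CD2+ and 0.456 in mef2:CD2- cells, exact permutation tests). An exact test of 3 tags against 3 cannot give an unadjusted p below 0.1, and apart from ChIPCRM5432-D in mef2:CD2- cells, with 4, each construct had 3 tags or fewer, so that the lost calls say nothing of the size of the differences. The ratio of ChIPCRM5432-D1 to ChIPCRM5432-D was then 0.00542 in twi:CD2+ and 0.00537 in mef2:CD2- cells, while its ratio to the wildtype enhancer in twi:CD2+ cells was 0.00133.

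The departure from a multiplicative combination of the single effects was tested on the log2 scale. If the effects of the Deaf1 and CG12236-PB mutations multiplied, the geometric mean activity of ChIPCRM5432-D1 would have been 1.47 in twi:CD2+ cells, whereas 0.0139 was observed, which is 106-fold less. The interaction was -6.73 ± 0.65 log2 units (SE; adjusted p = 9.75e-05, permutation test). An activity of 1.77 was expected in mef2:CD2- cells and 0.0182 was observed, 97.1-fold less, with an interaction of -6.60 ± 0.47 log2 units (SE; adjusted p = 5.20e-05, permutation test). With the ZIPIC sites mutated, the same interaction was 0.20 ± 0.41 log2 units in twi:CD2+ cells (adjusted p = 0.766) and 0.05 ± 0.46 in mef2:CD2- cells (adjusted p = 0.995, permutation tests). On that background 2.78 was expected of ChIPCRM5432-D71 and 3.20 observed in twi:CD2+ cells, and 2.88 was expected and 2.97 observed in mef2:CD2- cells. The difference between the ZIPIC backgrounds, which is the three-way term, was 6.93 ± 0.76 log2 units in twi:CD2+ and 6.65 ± 0.66 in mef2:CD2- cells (SE; adjusted p = 9.75e-05 and 5.20e-05, permutation tests).

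The other pairs of motifs showed an interaction of the opposite sign, and only where the third motif was mutated. The Deaf1 by ZIPIC interaction was 7.47 ± 0.51 log2 units in twi:CD2+ and 6.60 ± 0.32 in mef2:CD2- cells with the CG12236-PB site mutated, against 0.54 ± 0.57 and -0.05 ± 0.58 with that site intact. The ZIPIC by CG12236-PB interaction was 7.65 ± 0.55 in twi:CD2+ and 7.51 ± 0.32 in mef2:CD2- cells with the Deaf1 sites mutated, against 0.72 ± 0.49 and 0.86 ± 0.61 with those sites intact. All 4 values on mutated backgrounds were called, with the same adjusted p-values as above, and the 4 on intact backgrounds were not (adjusted p from 0.325 to 0.995, permutation tests). These 7 terms are not separate pieces of evidence, since each large one contains the single low construct ChIPCRM5432-D1. Over all enhancers, 25% of the 2-motif interactions passed in twi:CD2+ and 36.2% in mef2:CD2- cells, as did 66.7% (2 of 3) and 60% (3 of 5) of the three-way terms. With tag means as observations, the Deaf1 by CG12236-PB interaction with intact ZIPIC sites remained called, with -6.25 log2 units in twi:CD2+ cells (adjusted p = 0.0292) and -6.52 in mef2:CD2- cells (adjusted p = 0.00182, permutation tests).

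Apart from the double mutant, all constructs had collection means of 1.98 to 12.3 in twi:CD2+ and of 1.53 to 13.4 in mef2:CD2- cells. The effect of the Deaf1 sites was taken on each of the 4 backgrounds of the other motifs. On the otherwise intact enhancer, ChIPCRM5432-D lay below the wildtype enhancer in 3 of 3 twi:CD2+ and 6 of 6 mef2:CD2- collections, with a ratio in single collections of 0.277 to 0.685 and of 0.420 to 0.878, with a call in mef2:CD2- cells (adjusted p = 0.0401) but not in twi:CD2+ cells (adjusted p = 0.133, exact permutation tests). In twi:CD2+ cells the ratio of means moved by over 1.5 times, to 0.682, without collection 1 and to 0.660 without tag c of the wildtype enhancer. It passed the test there in reads (adjusted p = 0.0971) and without tag b of the wildtype enhancer (0.0892, exact permutation tests). The effect itself was not called different between the populations (unadjusted p = 0.560, exact permutation test). The call in mef2:CD2- cells was lost without collection 2 (adjusted p = 0.121), without collection 4 (0.198), without tag e of ChIPCRM5432-D (0.217), without tag a of the wildtype enhancer (0.144), and in week 1 (0.142) and week 2 alone (0.322, exact permutation tests). With the ZIPIC sites mutated, ChIPCRM5432-D7 had 4.07, 3.28 and 2.95 against 3.32, 5.54 and 5.42 for ChIPCRM5432-7 in twi:CD2+ collections 1 to 3, a ratio of means of 0.734 that was not called (adjusted p = 0.372, exact permutation test). It was called with UMIs corrected for saturation (0.636, adjusted p = 0.0972) and with reads (0.539, adjusted p = 0.0299, exact permutation tests). The same constructs had mef2:CD2- collection means of 2.35 to 4.09 (median 3.32) and 3.38 to 13.4 (median 4.98). The ratio there was 0.492 (adjusted p = 0.0294, exact permutation test), lower in 5 of 6 collections, and the call was lost without collection 2 (adjusted p = 0.121), without tag c of ChIPCRM5432-D7 (0.141), without tag c of ChIPCRM5432-7 (0.184) and in week 2 alone (0.348, exact permutation tests).

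With ZIPIC and CG12236-PB sites both mutated, ChIPCRM5432-D71 had 3.02, 3.44 and 4.55 in twi:CD2+ collections 1 to 3 and ChIPCRM5432-71 had 4.06, 3.57 and 4.45. The ratio of means was 0.912 (adjusted p = 0.506), and without tag c of ChIPCRM5432-D71 it was 0.605 and called (adjusted p = 0.0406, exact permutation tests). Its value in mef2:CD2- cells was 0.744 and was called (adjusted p = 0.0618, exact permutation test), lower in 6 of 6 collections with ratios of 0.480 to 0.983. The observations overlapped, and this call was lost without collection 2 (adjusted p = 0.147), without collection 5 (0.207), without tag d of ChIPCRM5432-D71 (0.563), without tags b or c of ChIPCRM5432-71 (0.345 and 0.102), and in either week alone (0.310 in week 1 and 0.254 in week 2, exact permutation tests). On the fourth background, with the CG12236-PB site alone mutated, the Deaf1 mutation gave the drop to ChIPCRM5432-D1 described above.

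The effect of the CG12236-PB site was likewise taken on each background of the other motifs. ChIPCRM5432-1 had 2.88, 2.94 and 3.20 in twi:CD2+ collections 1 to 3, against 12.3, 6.32 and 2.89 for the wildtype enhancer, so that it lay below the wildtype enhancer in 2 of 3, with overlapping observations. The pair was called (adjusted p = 0.0874, exact permutation test), the only one in twi:CD2+ cells without the double mutant. The ratio of means was 0.667 without collection 1 (adjusted p = 0.630), 0.356 without collection 2 (0.327), 0.301 without tag a of the wildtype enhancer (0.261) and 0.614 without its tag c (0.125), and the call was lost each time (exact permutation tests). It was also lost with collection as a replicate block (adjusted p = 0.130, permutation test). ChIPCRM5432-1 had mef2:CD2- collection means of 1.53 to 3.18 (median 2.74), against 3.35 to 7.95 (median 6.24). The ratio of means was 0.426 (adjusted p = 0.00130, exact permutation test), lower in 6 of 6 collections, with 0.529 in week 1 and 0.359 in week 2, and the call held without any single collection or tag.

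With the ZIPIC sites mutated, the CG12236-PB mutation had no called effect. ChIPCRM5432-71 had 0.846 of the activity of ChIPCRM5432-7 in twi:CD2+ cells (adjusted p = 0.617) and 0.704 in mef2:CD2- cells (adjusted p = 0.664, exact permutation tests), with ratios in single collections of 0.645 to 1.22 and of 0.483 to 1.35. With Deaf1 and ZIPIC sites both mutated, ChIPCRM5432-D71 had 1.05 times the activity of ChIPCRM5432-D7 in twi:CD2+ cells (adjusted p = 0.840) and 1.06 times in mef2:CD2- cells (adjusted p = 0.980, exact permutation tests). It was higher in 2 of 3 and in 3 of 6 collections, with ratios of 0.743 to 1.55 and of 0.622 to 1.82. These ranges are wide enough to hold part of the range on the intact enhancer.

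The ZIPIC mutation had no called effect on the intact enhancer. ChIPCRM5432-7 had 3.32, 5.54 and 5.42 in twi:CD2+ collections 1 to 3, against 12.3, 6.32 and 2.89 for the wildtype enhancer, a ratio of means of 0.602 (adjusted p = 0.902, exact permutation test) that was 1.19 without collection 1 and 0.972 without tag c of the wildtype enhancer. The means in mef2:CD2- cells were 6.39 ± 5.25 for the mutant (SD, n = 12) and 6.11 ± 3.30 for the wildtype enhancer (SD, n = 14), a ratio of 1.05 (adjusted p = 0.874, exact permutation test), and the ratio in single collections ran from 0.432 to 1.68. On the Deaf1 mutant background, ChIPCRM5432-D7 had 1.08 times the activity of ChIPCRM5432-D in twi:CD2+ cells (adjusted p = 0.728) and 0.879 times in mef2:CD2- cells (adjusted p = 0.516, exact permutation tests). With reads the ratio in mef2:CD2- cells was 0.646 and was called (adjusted p = 0.0143, exact permutation test). With a minimum of 20 DNA UMIs it was 2.07 in twi:CD2+ and 0.531 in mef2:CD2- cells, neither called. On the CG12236-PB mutant background, ChIPCRM5432-71 had 4.06, 3.57 and 4.45 in twi:CD2+ collections 1 to 3, above the 2.88, 2.94 and 3.20 of ChIPCRM5432-1 in each, a ratio of 1.34 that was not called (adjusted p = 0.179, exact permutation test). Among mef2:CD2- collections it was higher in 6 of 6 collections, with collection means of 3.36 to 6.46 (median 4.49) against 1.53 to 3.18 (median 2.74), and the ratio of 1.73 was called (adjusted p = 0.00289, exact permutation test). This pair rests on the tags nearest to saturation (below).

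Set against the wildtype enhancer, 2 of 7 mutants passed the test in twi:CD2+ and 5 of 7 in mef2:CD2- cells, all of them lower, where over all enhancers 18.8% (15.6% lower) and 46.4% (36.2% lower) were called. The called mutants in mef2:CD2- cells included ChIPCRM5432-D7, with 0.515 of the wildtype activity (adjusted p = 0.00691), and the triple mutant, with 0.548 (adjusted p = 0.0164), both lower in 6 of 6 collections. The first was not called in week 2 alone (adjusted p = 0.148), and the triple mutant was called in neither week alone (0.137 in week 1 and 0.147 in week 2) nor without its tag d (0.198). ChIPCRM5432-71 was not called there, with 0.736 (adjusted p = 0.438). For ChIPCRM5432-D7, the triple mutant and ChIPCRM5432-71 in twi:CD2+ cells the ratios were 0.442, 0.465 and 0.510 (adjusted p = 0.281, 0.210 and 0.434; exact permutation tests). Each moved by over 1.5 times with 1 collection or tag, to 0.683, 0.868 and 0.871 without collection 1 and to 0.714, 0.750 and 0.823 without tag c of the wildtype enhancer. ChIPCRM5432-D7 was called without collection 3 (adjusted p = 0.0911), after saturation correction (0.0859) and in reads (0.0335), the triple mutant in reads (0.0942) and without its tag c (0.0416), and ChIPCRM5432-71 without collection 3 (0.0662, exact permutation tests).

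Ordered by mean activity in twi:CD2+ cells, the constructs were the wildtype enhancer (7.90 ± 8.11, n = 7), ChIPCRM5432-7 (4.76 ± 1.26, n = 6), ChIPCRM5432-71 (4.03 ± 1.26, n = 9), ChIPCRM5432-D71 (3.67 ± 2.28, n = 9), ChIPCRM5432-D7 (3.49 ± 1.22, n = 8), ChIPCRM5432-D (3.23 ± 1.66, n = 9), ChIPCRM5432-1 (3.01 ± 0.284, n = 6) and ChIPCRM5432-D1 (0.0181 ± 0.0159, n = 9; SD over observations). The step to the double mutant was the only one of the 7 steps between neighbours to be called. In mef2:CD2- cells the order was ChIPCRM5432-7, the wildtype enhancer, ChIPCRM5432-71 (4.50 ± 1.59, n = 18), ChIPCRM5432-D (3.58 ± 1.50, n = 17), ChIPCRM5432-D71 (3.34 ± 1.86, n = 16), ChIPCRM5432-D7 (3.14 ± 1.10, n = 17), ChIPCRM5432-1 (2.60 ± 0.698, n = 12) and ChIPCRM5432-D1. Again only the last step was called. Neighbours were set by these same means, so the uncalled steps do not show that the 7 active constructs were alike. In mef2:CD2- cells 11 of the 21 pairs without the double mutant were called.

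The highest wildtype value in twi:CD2+ cells was of a tag with little DNA. Tag c had an activity of 26.0 in collection 1, with 4108 RNA UMIs on 72 DNA UMIs, just above the minimum, while the other 6 wildtype values averaged 4.90 ± 1.72 (SD). In collections 2 and 3 the same tag had 3 and 5 DNA UMIs under 2249 and 2502 RNA UMIs, which would have given activities of 193 and 290. Tag a of ChIPCRM5432-D, left out of all 3 twi:CD2+ collections, had 4 to 8 DNA UMIs and would have given 163 to 731. Nearest to the minimum in mef2:CD2- cells, tag b of ChIPCRM5432-D71 was kept in collection 2 with 70 DNA UMIs (activity 3.03) and left out in collection 3 with 58 (6.62). In twi:CD2+ cells tag b of ChIPCRM5432-D7 was left out of collection 3 with 49 DNA UMIs (32.2). Several of the values left out were thus far above those kept. With a minimum of 20, ChIPCRM5432-D had 0.977 of the wildtype activity in mef2:CD2- cells and was not called (adjusted p = 0.174, exact permutation test). With a stricter minimum of 200 it had 0.621 there and was not called either (adjusted p = 0.128, exact permutation test).

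The strongest tags came close to using up the UMIs. An 8-base label has 65536 possible sequences, so that different molecules begin to share a label as counts grow, and the UMI count then falls short of the molecules. In RNA libraries of twi:CD2+ cells 27 of 75 values of this series took up over 25% of the possible sequences and 10 took up over 50%, against 21 and 4 values of all other constructs. In mef2:CD2- cells 44 of 149 values were over 25% and 13 over 50%, against 25 and 0 of the other constructs. The highest DNA count was 8494 UMIs, or 13.0% of the possible sequences. The 14 highest RNA counts of the whole pool were all of ChIPCRM5432 tags, most of them tags a and b of ChIPCRM5432-1. Tag b of that construct had 41061, 43833 and 36622 RNA UMIs in twi:CD2+ collections 1 to 3, and 32581 to 53453 (median 41630) in mef2:CD2- cells.

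Saturation bears on ChIPCRM5432-1 more than on the constructs it is compared with. Under the assumption that all labels are equally frequent, its corrected mean was 3.89 ± 0.400 (SD, n = 6) in twi:CD2+ cells and 3.32 ± 1.00 (SD, n = 12) in mef2:CD2- cells. Against the wildtype enhancer this gave 0.493 in twi:CD2+ cells (adjusted p = 0.273, no longer called) and 0.520 in mef2:CD2- cells (adjusted p = 0.0145, exact permutation tests). With read counts in place of UMIs its mean was 5.35 ± 0.968 in twi:CD2+ and 5.58 ± 1.95 in mef2:CD2- cells (SD), and the ratios of 0.712 and 0.206 were not called (adjusted p = 0.790 and 0.345, exact permutation tests). The second ratio holds a single wildtype value of 275, of tag c in collection 6 with 161 DNA reads, without which the wildtype mean in reads was 8.10 and not 27.1. The higher activity of ChIPCRM5432-71 than of ChIPCRM5432-1 in mef2:CD2- cells was 1.40-fold after correction (adjusted p = 0.0616) and 1.02-fold in reads (adjusted p = 0.956, exact permutation tests). The double mutant was far from saturation, and its ratio to ChIPCRM5432-1 in twi:CD2+ cells was 0.00404 after correction and 0.00236 in reads, both lower than with UMIs.

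The constructs were also set side by side between the populations. In a model of the summed UMIs of each construct (edgeR's quasi-likelihood test), 0 of the 8 constructs differed between twi:CD2+ and mef2:CD2- cells, where 3.33% of all 90 constructs did. The log2 difference ranged from -0.30 ± 0.33 (SE; adjusted p = 0.744) for ChIPCRM5432-D1 to 0.25 ± 0.31 (SE; adjusted p = 0.822) for ChIPCRM5432-1. Standard errors of 0.24 to 0.35 log2 units over the 8 constructs leave room for differences larger than these, in either direction. The 16 mutation effects compared between 3 twi:CD2+ and 6 mef2:CD2- collections gave no call, with a smallest unadjusted p of 0.0952 (two-sided exact permutation test) for ChIPCRM5432-71 against ChIPCRM5432-1. Its mean log2 effect was 0.42 ± 0.12 (SD, n = 3) in twi:CD2+ and 0.79 ± 0.36 (SD, n = 6) in mef2:CD2- cells. Over all enhancers, 0% of 123 such effects were called, and 12 had an unadjusted p under 0.05, of which 0 were of this series. With 3 against 6 collections the smallest possible unadjusted p of this exact permutation test is 0.0119. Adjustment over 123 effects thus left little room for any call, and the absence of calls does not show that the effects were alike. The log2 effect of the triple against the double mutant was 7.70 ± 0.20 in twi:CD2+ and 7.33 ± 0.79 in mef2:CD2- cells (SD over collections).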

How the data were processed

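Per the labels, each collection of sorted embryonic cells gave 1 RNA and 1 DNA library, 18 in all. The authors took the first 8 bases of a read as UMI, trimmed constant sequence with cutadapt (1.14 in the submitters' processing notes, which also name R 3.5.1), aligned tags with Bowtie to their tag list, and deposited for each tag its UMI count and its read count, without normalization. UMI counts were used here, and reads as an alternative.

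Activity was the RNA share over the DNA share of a collection, for tags with at least 65 DNA UMIs and some RNA, and for constructs with at least 4 observations. After a Kruskal-Wallis test over each enhancer series by 20000 permutations, pairs of constructs were compared by two-sided exact permutation tests of mean ranks, with Benjamini-Hochberg adjustment across every pair in the 12 series (237 in twi:CD2+ and 269 in mef2:CD2- cells), with a threshold of 0.1. Interactions on log2 activity used 100000 permutations of residuals, of which the smallest possible p is 1e-05, adjusted over 39 and 52 terms. Populations were compared by edgeR 4.0.16 (R 4.3.3, TMM, threshold 0.05) on UMI sums per construct, with collection as a term. Other computations used Python 3.11.15, numpy 2.4.6, scipy 1.17.1 and pandas 2.3.3. The tests were first run on simulated data with independent noise for each value. Such data could not check the counting of repeated values of a tag as observations. Alternatives were read counts, UMI counts corrected for saturation, DNA minimums of 20 and 200, tag means, medians and geometric means, collection as a block, single weeks, other count models and normalizations, and each collection and tag left out. Every construct of the series is named. The substitutions were read from the first 385 bases of the listed construct sequences. The chromosome of the landing site was taken from that of the gene Msp300, in which attP40 lies. p-values measure the spread between tags and collections, which may be technical in part. Members, lists and tests were chosen with earlier results of these data known.

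Same-numbered RNA and DNA libraries come from the same cells. Over 93 constructs, their counts correlated with r between 0.182 and 0.800 (median 0.542) as deviations from the population means. 0 pairs of libraries held identical values.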

Additional observations from a re-analysis of the deposited data

Results flagged for a closer look

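Among 8 constructs and 20 tags in mef2:CD2- cells, 3 tags had a value in 1 collection that lay far from those of the same tag in the other collections, with a gap above Dixon's critical value on the log2 scale, where chance gives about 1 in 20. Tag a of ChIPCRM5432-1 had its lowest activity, 1.75, in collection 6, against 2.52 to 2.79 in the other collections. Tag b of the wildtype enhancer had 0.189 in collection 6, with 972 RNA UMIs on 1063 DNA UMIs, against 4.14 to 6.97. Tag c of ChIPCRM5432-7 had 0.173 in collection 4, with 134 RNA UMIs on 154 DNA UMIs, against 5.67 to 21.2.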

How the results depend on the processing

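The near silence of ChIPCRM5432-D1 was called under every alternative in which it was tested, except tag means. There its ratio was 0.00542 to ChIPCRM5432-D and 0.00521 to ChIPCRM5432-1 in twi:CD2+ cells, and 0.00537 and 0.00743 in mef2:CD2- cells. The triple mutant then had 226 and 178 times the activity of the double mutant. With tag means 0 motif effects and 0 mutants were called in both populations. With a replicate block, 1 mutant was called against wildtype in twi:CD2+ cells in place of 2, ChIPCRM5432-1 being lost, as with a DNA minimum of 200 (1). With reads it was 4. In mef2:CD2- cells 3 mutants were called in week 1 and 2 in week 2, where 5 motif effects were. Leaving out 1 collection or tag gave 2 to 5 called motif effects and 1 to 4 called mutants in twi:CD2+ cells, and 5 to 8 motif effects in mef2:CD2- cells. The count of 2 came without tag a or b of ChIPCRM5432-1, which left that construct too few observations. Only 9 motif effects and 6 mutants were then tested, and ChIPCRM5432-D1 was not compared with ChIPCRM5432-1. Directions turned only in comparisons that were not called, except ChIPCRM5432-D71 against ChIPCRM5432-71 in mef2:CD2- cells, with 1.00 at a minimum of 20. In twi:CD2+ cells ChIPCRM5432-71 against ChIPCRM5432-1 was 0.850 with reads, and ChIPCRM5432-D7 against ChIPCRM5432-D was 0.848 with reads and 0.966 after saturation correction. At a minimum of 20, ChIPCRM5432-D7 against ChIPCRM5432-7 was 1.40, ChIPCRM5432-D71 against ChIPCRM5432-D7 0.550 and the interaction with mutated ZIPIC sites -0.16 log2 units. ChIPCRM5432-D71 against ChIPCRM5432-D7 was also 0.994 with tag means, 0.972 with geometric means and 0.751 with medians. In mef2:CD2- cells it was 0.975 at a minimum of 200 and 0.950 with medians. ChIPCRM5432-7 against wildtype there was 0.259 with reads (a mean of 7.01 for the mutant and, without the single wildtype value of 275, of 8.10 for the wildtype enhancer), 0.991 after correction, 0.946 at 20, 0.867 at 200, 0.791 with tag means and 0.927 with geometric means. The interaction with mutated ZIPIC sites there was -0.11 with reads, -0.020 after correction and -0.34 in week 2. Between populations ChIPCRM5432-1 differed by -0.11 log2 units with reads and -0.025 with week 1. Without 1 collection or tag, the ratios in twi:CD2+ cells were 0.447 to 1.19 for ChIPCRM5432-7 against wildtype, 0.936 to 1.34 for ChIPCRM5432-D7 against ChIPCRM5432-D, 0.698 to 1.28 for ChIPCRM5432-D71 against ChIPCRM5432-D7 and 0.605 to 1.11 against ChIPCRM5432-71. In mef2:CD2- cells they were 0.749 to 1.34 for ChIPCRM5432-7 against wildtype and 0.868 to 1.30 for ChIPCRM5432-D71 against ChIPCRM5432-D7. The interaction with mutated ZIPIC sites ran from -0.23 to 0.71 (twi:CD2+) and from -0.18 to 0.44 (mef2:CD2-). The cause of these changes was not tested. UMI saturation and the few DNA UMIs of some tags limit the comparisons among the 7 active constructs.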
